A study of Saccharomyces cerevisiae with 6 samples.

Results

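The first step of an arrest series in budding yeast, from T1 to T2, was examined by comparing the transcript levels of the 2 T2 libraries with those of the 2 T1 libraries in every gene that averaged at least 1 TPM over the series. TPM is a relative abundance corrected for gene length, with the same total in every library. The rule kept 6046 of 6400 named entries. At its edge, tV(CAC)D averaged 1.02 TPM and was kept, while SUF23 averaged 0.999 TPM and was left out. T2 and T1 are each represented by replicates A and B of the W303 laboratory strain of Saccharomyces cerevisiae, and another group, T3, with its own 2 libraries, serves to show which changes were complete by T2. All 6 titles carry the word arrest, and the series' design speaks of duplicates at 3 mean sizes. The labels state no allele, agent, size, time or method of arrest for any group, nor what the groups share beyond the strain, and nothing says whether A and B grew as separate cultures, so p-values may measure technical spread.

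Many yeast transcripts are tied to the division cycle, to growth or to nutrients. Late in mitosis and early in G1, daughter cells make chitinases and glucanases that cut the septum between mother and daughter. At the start of a cycle, the factors SBF and MBF switch on G1 cyclins, DNA replication genes and nucleotide synthesis genes. When nutrients or growth signals fall, Msn2 and Msn4 raise a common set of stress and reserve carbohydrate genes, and genes for ribosomes and their assembly are lowered.

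The 2 replicates resembled each other in every group, with Spearman correlations of 0.9939 to 0.9963 across genes within a group, and 17881463 to 23549197 fragments on genes were recovered per library. Libraries showed the markers of alpha cells: the pheromone gene MF(ALPHA)1 held 2436 and 2588 TPM at T2 and 3137 and 3200.0 TPM at T1. The 7 a-cell markers lay between 0.77 and 11.2 TPM over all 6 libraries, and the 7 sporulation markers between 1.80 and 15.7 TPM. The alpha-cell markers summed to 3084 and 3264 TPM at T2, against 4085 and 4132 TPM at T1, and none of the markers was at 0.

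At T2, 1091 of the 6046 genes differed from T1 at an adjusted p below 0.05 (18.0%). In all 1091 the T2 and T1 libraries did not overlap. Such a call with 2 libraries a group nearly requires this, so it adds no support. Of these, 722 rose (11.9% of all tested) and 369 fell (6.10%). Those 2 shares are the background for the counts per gene list below. The median log2 change was 0.47 among the genes that rose and -0.43 among those that fell, against 0.02 over all tested genes, and the median standard error was 0.11. Changes of at least 2-fold were few, with 52 genes higher and 37 lower, and 16 of the 52 and 15 of the 37 were entries not matched to a protein-coding gene. Those entries are mostly tRNA and snoRNA genes, which a poly(A) library measures poorly. The test was limma on log2(TPM + 1), a scale that understates the folds of low genes. Leaving out T2 B gave 408 genes higher, and leaving out T2 A gave 153 lower. With quantile normalization 51.8% of the calls were higher, in place of 66.2%.

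**Figure D1:**
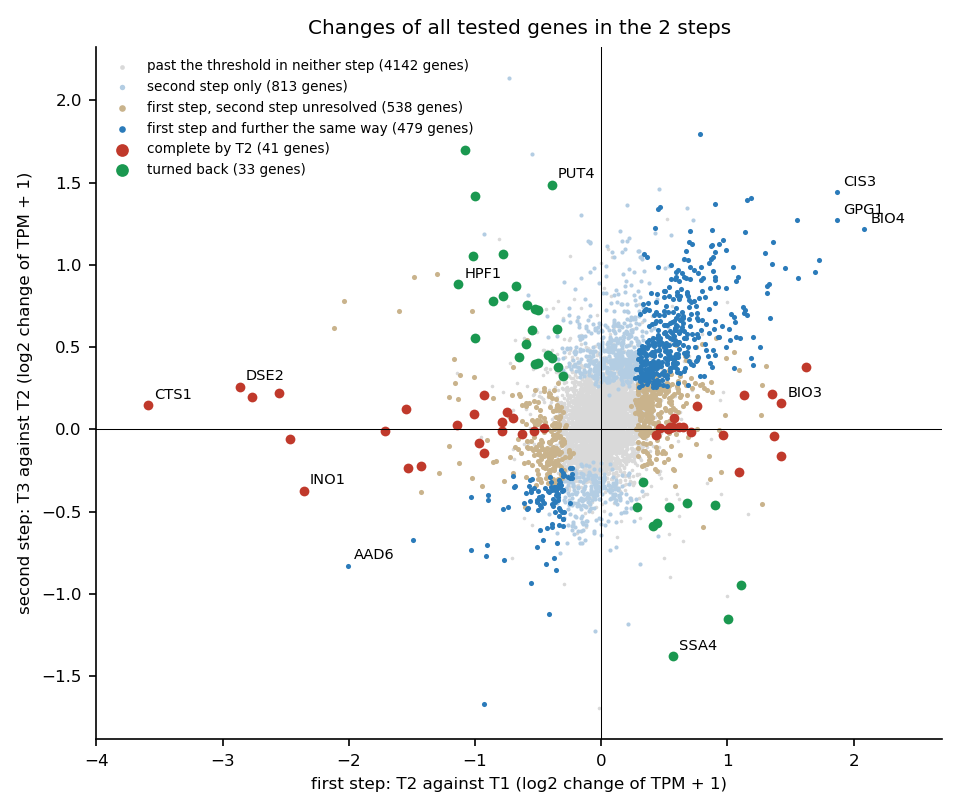
Each point is 1 of the 6046 tested genes, with its log2 change at T2 against T1 on the horizontal axis and at T3 against T2 on the vertical axis, both of TPM + 1. Red points (41 genes) changed by T2, while the second change missed the threshold and its interval lay within 0.5 times the first change. This band differs from gene to gene and widens with the size of the first change. Green points (33 genes) turned back, and dark blue points (479 genes) went on the same way. CTS1 lies farthest left, at -3.59.

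What was complete by T2 was judged from the same fit. A gene that changed at T2 was called complete when T3 against T2 missed the threshold and the 95% interval of that second change lay within 0.5 times the size of the first change, on both sides. By this rule 41 genes were complete (0.678% of all tested), 19 that rose and 22 that fell. A further 479 genes (7.92%) changed again in the same direction, 383 up and 96 down, and 33 turned back (0.546%), 10 that had risen and 23 that had fallen. The remaining 538 (8.90%) could not be resolved. The second step, T3 against T2, had 957 genes higher (15.8%) and 368 lower (6.09%), of which 813 passed the threshold in that step alone, 551 higher and 262 lower at T3. The 2 T2 libraries enter both steps with opposite sign, which favours apparent returns and disfavours apparent continuation. A direct test of the signed difference between the steps called 65 genes in all (1.08%). Among them, 52 of the 1091 had a larger first step, 15 that rose and 37 that fell, and 1 had a larger second step. Steps are compared here in the direction of the first, so a reversal counts as a larger first step whatever its size. SSA4, at 0.57 and then -1.38, is such a case. Sorting only genes called in the first step favours large first changes, so the counts of 52 and 1 cannot be weighed against each other. Without T3 B 22 genes and without T3 A 24 genes were complete, and without T1 A 68 were. Without T1 A 60 and without T1 B 55 genes turned back. Of the 41 complete genes 10, and of the 33 that turned back 5, kept their class in each of up to 14 other settings of pseudocount, filter, scaling, fit and left-out library in which they were tested. The larger first steps numbered 146 without T1 A, 137 without T1 B and 17 without T2 A.

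The largest falls at T2 were in daughter cell separation transcripts. Of 31 tested genes of separation and the M to G1 interval, 14 fell and 4 rose at T2 (median log2 change -0.26, against 0.02 over all tested genes). Of the 14, 7 were complete. By the signed test, in which a reversal counts whatever its size, 10 list members had a larger first step, and 2 list members turned back. CTS1, the endochitinase that digests the chitin of the septum, held 11.05 and 11.9 TPM at T2, against 103 and 217 TPM at T1. Both T2 libraries lay far below both T1 libraries, and the T1 libraries themselves lay apart, with A lower than B. Its log2 change was -3.59 with a standard error of 0.23 (limma adjusted p = 3.16e-07), and at T3 CTS1 stayed at 12.9 and 12.8 TPM. In bulk RNA, fewer cells with a transcript and less of it per cell cannot be told apart.

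The same shape held for the genes that act beside CTS1. DSE2, a secreted glucanase-like protein of the daughter side, held 10.9 and 12.3 TPM at T2, against 64.02 and 128 TPM at T1. DSE1, a daughter-specific protein of the cell wall pathway, held 3.53 and 4.03 TPM at T2, against 22.4 and 44.3 TPM at T1. SCW11, a glucanase-like cell wall protein, held 3.38 and 3.86 TPM at T2, against 15.7 and 37.8 TPM at T1. In each of them the groups did not overlap and T1 A lay below T1 B, as for CTS1. The log2 changes were -2.86 for DSE2 (limma adjusted p = 1.75e-06), -2.77 for DSE1 (limma adjusted p = 3.37e-06) and -2.47 for SCW11 (limma adjusted p = 4.82e-05), and their T3 levels were 13.5 and 14.6, 4.51 and 4.44 and 3.33 and 3.54 TPM. EGT2, another gene of septum removal, held 2.31 and 2.67 TPM at T2, against 11.4 and 32.7 TPM at T1. AMN1, a daughter gene that antagonizes the mitotic exit network, held 9.68 and 8.80 TPM at T2, against 21.2 and 39.4 TPM at T1. Both fell and were complete, with log2 changes of -2.55 and -1.55 (limma adjusted p = 0.000121 and 0.00017). SUN4, a SUN family glucanase-like gene chosen after its values were seen, held 19.98 and 19.8 TPM at T2, against 33.9 and 49.4 TPM at T1 and was the seventh complete gene of the list. DSE4, a secreted endoglucanase, fell by 2.04 on the log2 scale but stood at 6.36 and 7.58 TPM at T3, and its second step was not resolved (limma adjusted p = 0.0614). T1 B lay above T1 A in each of these 8 genes. CTS1, DSE1, DSE2 and SCW11 stayed complete in each of the 14 other settings, while AMN1, EGT2 and SUN4 lost the class without a filter on low values. Without T1 B 7 list members rose in place of 4. The count of list members that fell, 14 here, ranged from 5 to 15 over 15 alternatives.

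The 4 list members that rose went on rising, and 3 of them encode cell wall proteins. CIS3, an O-mannosylated wall protein of the PIR family, held 323 and 352 TPM at T2, against 79.96 and 105 TPM at T1. PST1, a GPI-anchored wall protein, held 431 and 478 TPM at T2, against 192 and 231 TPM at T1. PIR3 held 949 and 1021 TPM at T2, against 560.2 and 496 TPM at T1, and PRY1, a secreted sterol-binding protein chosen after its values were seen, was the fourth. All 4 had libraries at T2 above both libraries at T1, with log2 changes of 1.87 for CIS3, 1.10 for PST1, 0.90 for PIR3 and 0.63 for PRY1.

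**Figure D2:**
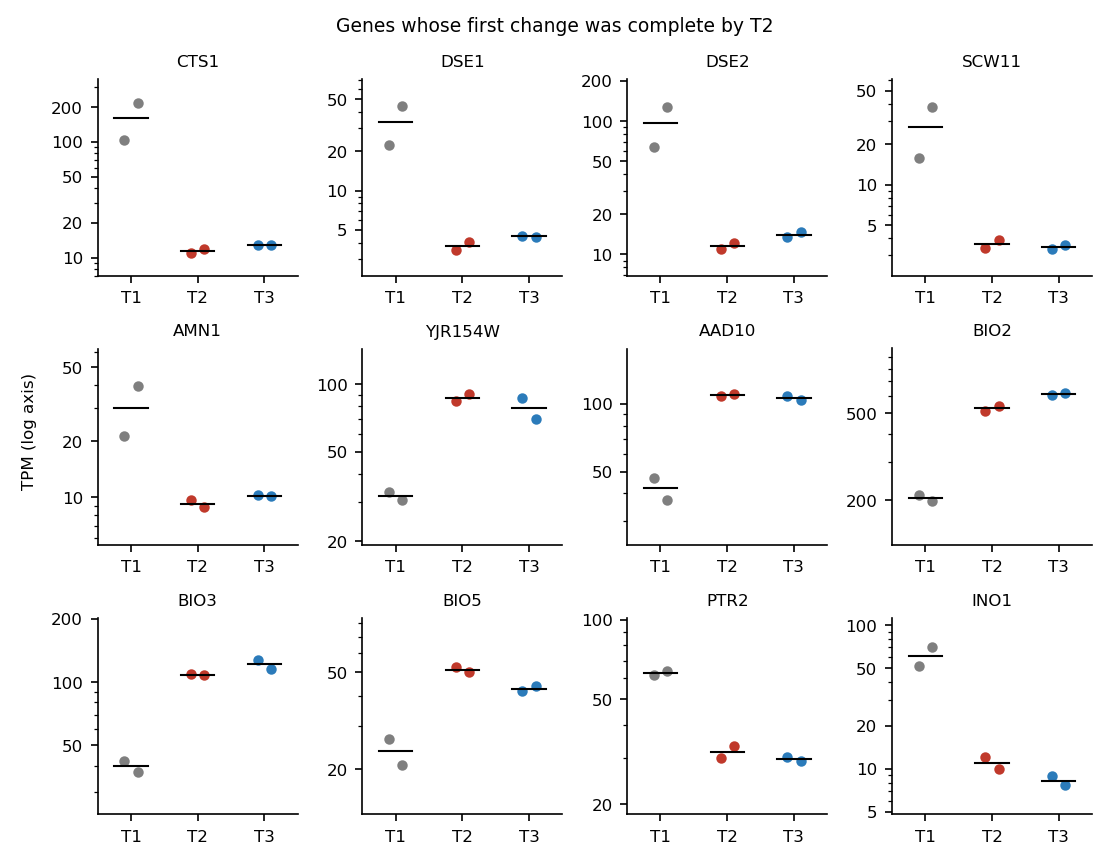
TPM on a log axis in each library at T1, T2 and T3 for 12 genes complete by T2. Points are libraries (replicate A left, B right) and lines are group means of 2 libraries. CTS1, DSE1, DSE2, SCW11 and AMN1 of the separation and M to G1 list, with PTR2 and INO1, drop at T2 and stay below T1 at T3. BIO2, BIO3, BIO5, AAD10 and YJR154W step up at T2 and stay above T1 at T3. The interval of the second log2 change was wholly positive for BIO2 (0.0374 to 0.3952). It was wholly negative for BIO5 (-0.506 to -0.0056) and INO1 (-0.6869 to -0.0561). None of them passed the threshold in that step.

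Of the biotin genes that rose at T2, 3 were complete by the rule above and BIO4 went on rising. Biotin is the cofactor of carboxylases, and yeast makes it from an imported or internal precursor through the BIO enzymes. Of 10 tested biotin genes, 5 rose and 1 fell at T2 (median log2 change 0.30), 4 were complete, and 4 (BIO2, BIO3, BIO4 and BIO5) had a larger first than second step. BIO2, the biotin synthase of the last step, held 514 and 537 TPM at T2, against 212 and 199 TPM at T1. BIO3, the aminotransferase that makes diaminopelargonate, held 109 and 108 TPM at T2, against 42.2 and 37.5 TPM at T1. BIO5, the importer of biotin precursors, held 52.6 and 50.1 TPM at T2, against 26.6 and 20.8 TPM at T1. All T2 libraries lay above all T1 libraries, by 2.55-fold for BIO2, 2.68-fold for BIO3 and 2.13-fold for BIO5 (limma adjusted p = 3.16e-07, 7.74e-07 and 3.79e-05). At T3 BIO2 stood at 604 and 618 TPM, BIO3 at 127 and 116 TPM and BIO5 at 41.9 and 43.8 TPM. BIO4, the dethiobiotin synthetase between them in the pathway, differed from its neighbours. It held 199 and 185 TPM at T2, against 46.8 and 42.6 TPM at T1, a 4.24-fold rise (SE of the log2 change 0.095, limma adjusted p = 2.75e-08). BIO4 then went on to 464 and 434 TPM at T3, a second log2 change of 1.22. VHT1, the biotin importer and chosen after its values were seen, held 307 and 338 TPM at T2, against 217 and 234 TPM at T1, a log2 change of 0.52 (limma adjusted p = 0.00309). ACC1, the acetyl-CoA carboxylase that carries biotin, fell to 149.8 and 154 TPM at T2, against 249 and 245 TPM at T1, and was complete. BIO2 and BIO3 kept the class in all 14 other settings, ACC1 in 8 and BIO5 in 7.

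A biotin response element with the letters AATCA and, after 8 free bases, TGACT or TGATT was searched after these values were seen, on both strands of the 500 bases before each start codon. It occurred in 20 of 5787 such promoter windows (0.346%), among them BIO5 and VHT1 but not BIO2, BIO3 or BIO4. The 2 sites are shown because both genes import the vitamin or its precursors, with the element in capitals between 30 bases on both sides, 5′ to 3′ on the gene's strand, from the R64 genome:
BIO5 (chrXIV:733539-733616, minus strand): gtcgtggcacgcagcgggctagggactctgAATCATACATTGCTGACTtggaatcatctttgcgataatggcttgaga
VHT1 (chrVII:620076-620153, minus strand): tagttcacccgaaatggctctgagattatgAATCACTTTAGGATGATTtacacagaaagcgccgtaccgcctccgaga
The BIO5 stretch lies wholly inside the reading frame of the neighbouring gene BIO4 (chrXIV:733356-734069, minus strand), so it is coding sequence of BIO4 as well as upstream of BIO5. The elements begin 283 bases before the start codon of BIO5 and 265 bases before that of VHT1. Of the 687 windows of genes that rose, 6 held the element (0.873%). A match is a description of letters and not of binding.

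Neighbouring genes were complete together at 3 places. On chromosome X, YJR154W held 84.5 and 90.5 TPM at T2, against 33.2 and 30.6 TPM at T1, and AAD10, a putative aryl-alcohol dehydrogenase gene 580 bases downstream on the same strand, held 109 and 110.3 TPM at T2, against 46.6 and 37.5 TPM at T1. Both sets of T2 libraries lay well above T1, by 2.69-fold for YJR154W and 2.58-fold for AAD10 (limma adjusted p = 2.64e-06 and 2.98e-06), and at T3 they stood at 86.7 and 70.5 and 109 and 105 TPM. AAD6, a relative of AAD10, moved the other way, to 33.4 and 38.5 TPM at T2, against 129 and 169 TPM at T1. It went on falling, with 18.4 and 21.3 TPM at T3. Its family has similar sequences, so reads may be shared. On chromosome XII, YLL053C and the aquaporin gene AQY2, which overlap by 50 bases and whose reads may be shared, fell by 1.53 and 1.43 on the log2 scale. On chromosome II, ICS2, chosen after its values were seen, lies next to AMN1 and held 9.61 and 8.68 TPM at T2, against 23.1 and 19.9 TPM at T1.

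Phospholipid genes fell at T2. Genes with the inositol response element are activated by Ino2 and Ino4 and held down by Opi1 when inositol is plentiful. Of 27 tested members, 14 fell and 0 rose at T2 by limma (0 rose at an unadjusted p below 0.05; median log2 change -0.30), and 12 fell and 1 rose between T2 and T3. INO1, the inositol-3-phosphate synthase, held 12.003 and 10.03 TPM at T2, against 51.6 and 70.7 TPM at T1. Every T2 library lay below both T1 libraries, and the log2 change was -2.36 with a standard error of 0.15 (limma adjusted p = 3.16e-07). Its level of 8.86 and 7.69 TPM at T3 was within the bound for a complete change, a class that INO1 kept in 10 of 14 other settings. ITR1, the main inositol transporter, held 259.9 and 293 TPM at T2, against 426 and 473 TPM at T1, and OPI3, a phospholipid methyltransferase, held 581 and 599 TPM at T2, against 885 and 922 TPM at T1. Those 2 genes fell again by T3, to 222 and 231 and 419 and 445 TPM. OLE1, the fatty acid desaturase and chosen after its values were seen, held 195 and 225 TPM at T2, against 330.4 and 374 TPM at T1 and was complete. The core of the inositol element, CATGTG on either strand, occurred in 13.1% of all promoter windows, and INO1 has 2 copies, of which 1 is shown as its reverse complement in capitals, in the same way:
INO1 (chrX:136076-136141, minus strand): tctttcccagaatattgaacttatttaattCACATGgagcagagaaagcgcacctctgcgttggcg
Its first base lies 178 bases before the INO1 start codon. Of the 21 protein-coding genes that fell and were complete, 6 held the core (28.6%).

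Genes of the G1 to S transition rose at the first step. Of 65 tested members, 27 rose and 1 fell at T2 (median log2 change 0.33), against 11.9% of all genes that rose, and 19 rose between T2 and T3. RNR1, the large subunit of ribonucleotide reductase, held 45.7 and 56.4 TPM at T2, against 12.4 and 17.3 TPM at T1. PCL1, a G1 cyclin of the Pho85 kinase, held 13.7 and 21.2 TPM at T2, against 5.13 and 5.25 TPM at T1. No T2 library overlapped T1 in either gene, and the rises were 3.31-fold (limma adjusted p = 3.25e-06) and 2.93-fold (limma adjusted p = 2.71e-05). Both went on, to 108 and 102 TPM for RNR1 and 43.9 and 41.6 TPM for PCL1 at T3. POL30, the sliding clamp of DNA polymerase, and YOX1, a repressor of M to G1 genes, both chosen after their values were seen, had log2 changes of 1.20 and 1.31. The 1 member that fell, PCL9, another Pho85 cyclin, held 4.51 and 6.23 TPM at T2, against 9.12 and 17.7 TPM at T1. GIC1, an effector of Cdc42 in bud emergence, held 22.7 and 22.1 TPM at T2, against 14.3 and 12.4 TPM at T1 and was complete, as was the histone chaperone gene ASF1, chosen after its values were seen, which kept the class in 8 of 14 other settings.

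The G1 cyclin genes CLN1, CLN2 and CLN3 did not pass the threshold, unlike PCL1 above. CLN1 held 53.6 and 61.4 TPM at T2, against 51.3 and 45.2 TPM at T1 (limma adjusted p = 0.127), CLN2 held 47.6 and 52.1 TPM at T2, against 48.6 and 46.6 TPM at T1 (limma adjusted p = 0.697), and CLN3 held 13.4 and 16.05 TPM at T2, against 13.9 and 11.6 TPM at T1 (limma adjusted p = 0.332). WHI5, the repressor of SBF that dilutes with growth, held 7.15 and 7.55 TPM at T2, against 9.51 and 7.91 TPM at T1, and SWI4, the DNA-binding part of SBF, held 15.4 and 16.1 TPM at T2, against 12.6 and 14.4 TPM at T1. In these 5 genes the first change was at most 0.25 on the log2 scale, with standard errors of 0.098 to 0.175. SIC1, the inhibitor of B-type cyclin kinase that is degraded before S phase, held 40.8 and 41.2 TPM at T2, against 34.3 and 42.7 TPM at T1 (limma adjusted p = 0.601), and then rose in the second step, to 63.7 and 64.4 TPM at T3. The B-type cyclin genes CLB5 and CLB6, chosen after their values were seen, rose by 0.41 and 0.76 on the log2 scale (limma adjusted p = 0.023 and 0.00236). CLB2, the main mitotic cyclin, also rose. It held 27.3 and 33.5 TPM at T2, against 6.94 and 10.8 TPM at T1, 3.23-fold higher at T2 (SE of the log2 change 0.16, limma adjusted p = 1.16e-05), and reached 59.8 and 59.6 TPM at T3. ACM1, an inhibitor of the anaphase-promoting complex, held 12.5 and 15.4 TPM at T2, against 3.63 and 5.38 TPM at T1. Of 42 genes of G2 and mitosis, 6 rose and 2 fell (median log2 change 0.16), against 11.9% and 6.10% of all tested genes. Without T2 B 3 rose, and without T1 B or T2 A 1 fell. Of 10 histone genes, 5 rose and 0 fell by limma (0 fell at an unadjusted p below 0.05; median log2 change 0.29).

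Sites of MBF (ACGCGT) and SBF (CGCGAAA), which can overlap through their shared CGCG, are shown for the pair above because their promoters carry several. RNR1 holds 4 MBF sites and PCL1 holds 2 SBF sites in 500 bases. The MBF letters occurred in 37 of 65 windows of the G1 to S list (56.9%), a list compiled partly from known targets, and in 5.50% of all windows. Among the 36 protein-coding windows of genes at least 2-fold higher at T2, 6 held the MBF site (16.7%) and 9 the SBF site (25%), against 5.91% of all windows for the SBF site. With 1 site each in capitals (for PCL1 the reverse complement), the stretches read:
RNR1 (chrV:298614-298679, plus strand): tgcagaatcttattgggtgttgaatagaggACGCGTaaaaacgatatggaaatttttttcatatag
PCL1 (chrXIV:87573-87639, plus strand): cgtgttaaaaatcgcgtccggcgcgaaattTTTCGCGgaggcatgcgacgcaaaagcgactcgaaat
The printed sites begin 306 bases before the RNR1 start codon and 294 bases before that of PCL1.

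**Figure D3:**
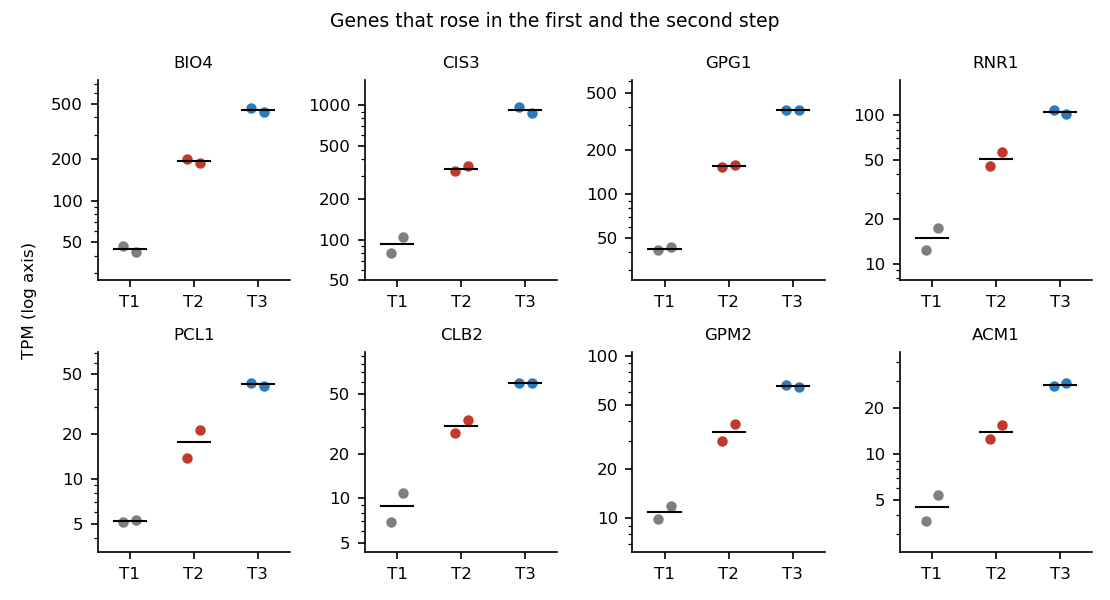
TPM on a log axis in each library at T1, T2 and T3 for 8 of the largest rises that continued. Points are libraries (replicate A left, B right) and lines are group means of 2 libraries. In each gene both T2 libraries lie between the T1 and the T3 libraries, as in BIO4 with 199 and 185 TPM at T2.

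Other large rises that continued came from the cell surface, signalling and metabolism. GPG1, proposed to act with the G protein alpha subunit Gpa2, held 154 and 159.6 TPM at T2, against 41.1 and 43.1 TPM at T1, a 3.66-fold rise (limma adjusted p = 2.77e-08), and 378 and 381 TPM at T3. GPM2, a homologue of phosphoglycerate mutase without known activity, held 29.9 and 38.2 TPM at T2, against 9.87 and 11.9 TPM at T1. YBR071W, a gene of unknown function, held 184 and 209 TPM at T2, against 67.7 and 85.2 TPM at T1. Each of them was higher in both T2 libraries than in both T1 libraries and higher again at T3. Of 53 cell wall genes 14 rose and 2 fell at T2 (median log2 change 0.11), and without T2 B 9 rose and without T2 A 1 fell. CWP2, an abundant GPI-anchored mannoprotein, held 6097 and 5923 TPM at T2, against 3107 and 2810.3 TPM at T1 and 8738 and 8765 TPM at T3. ZEO1, a cell wall integrity protein, fell to 3968 and 3407 TPM at T2, against 4765 and 5458 TPM at T1 (limma adjusted p = 0.0048, and 0.0634 without T2 B).

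Stress and reserve carbohydrate genes rose at T2 and mostly went on rising. Of 62 general stress genes, 32 rose and 0 fell at T2 by limma (2 fell at an unadjusted p below 0.05; median log2 change 0.33), while 46 rose and 5 fell between T2 and T3 (median 0.62, against 0.07 over all tested genes). HSP12, a small membrane-stabilizing stress protein, held 1169.7 and 944 TPM at T2, against 563 and 405 TPM at T1, and 2113 and 1430.4 TPM at T3. GPH1, glycogen phosphorylase, held 34.6 and 39.4 TPM at T2, against 17.2 and 14.2 TPM at T1, and 105 and 94.05 TPM at T3. Both T2 libraries of both genes lay above T1 and below T3, with first log2 changes of 1.14 (limma adjusted p = 0.000494) and 1.19 (limma adjusted p = 1.92e-05). Of the 32, 28 rose again, and 1, GRE3, an aldose reductase chosen after its values were seen, was complete (in 10 of 14 other settings also) at 232 and 243 TPM at T2, against 156 and 163 TPM at T1. Among 21 genes for trehalose and glycogen, 11 rose and 0 fell at T2 by limma (0 fell at an unadjusted p below 0.05), and all 11 rose again. TPS1, trehalose-6-phosphate synthase, held 239 and 289 TPM at T2, against 179 and 172 TPM at T1. Over 15 alternatives 15 to 32 general stress genes rose. Without T2 B 5 trehalose and glycogen genes rose, and without T1 B 4 general stress and 2 trehalose and glycogen genes fell. The Msn2 and Msn4 site AGGGG occurred in 56 of 62 promoter windows of the stress list (90.3%), whose members may have been chosen as known targets. It occurred in 45.6% of windows of all genes that rose and in 34.4% of all windows. Of the other elements searched, the heat shock element (TTC, GAA and TTC with 2 free bases between each) occurred in 1.16% of windows of genes that rose, 1.78% of those that fell and 1.5% of all. The CCAAT box stood in 65.2%, 59.6% and 62.7% of the same windows and the Gcn4 site TGACTCA in 3.20%, 5.34% and 4.08%.

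Respiration followed a similar course at smaller size. Of 17 genes of the tricarboxylic acid cycle, 9 rose and 0 fell at T2 by limma (0 fell at an unadjusted p below 0.05; median log2 change 0.31), and all 17 rose between T2 and T3 (median 0.53). SDH3, a membrane anchor of succinate dehydrogenase, held 335 and 314 TPM at T2, against 202 and 199.7 TPM at T1, which passed (log2 change 0.69, limma adjusted p = 0.000113). ACO1, aconitase and the most abundant member, held 624 and 735 TPM at T2, against 531 and 634 TPM at T1, which did not pass (limma adjusted p = 0.155). The libraries of T2 and T1 overlapped, while the second step of ACO1 passed. Of 36 oxidative phosphorylation genes, 17 rose and 0 fell at T2 by limma (0 fell at an unadjusted p below 0.05; median log2 change 0.25). COX13, a cytochrome oxidase subunit, held 709 and 686 TPM at T2, against 466 and 457 TPM at T1, and ATP15, the epsilon subunit of ATP synthase, held 2305 and 2151 TPM at T2, against 1596 and 1447 TPM at T1. Without T1 A 4 and without T2 B 3 cycle genes rose, and without T1 B 11 and without T2 A 10 oxidative phosphorylation genes rose.

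**Figure D4:**
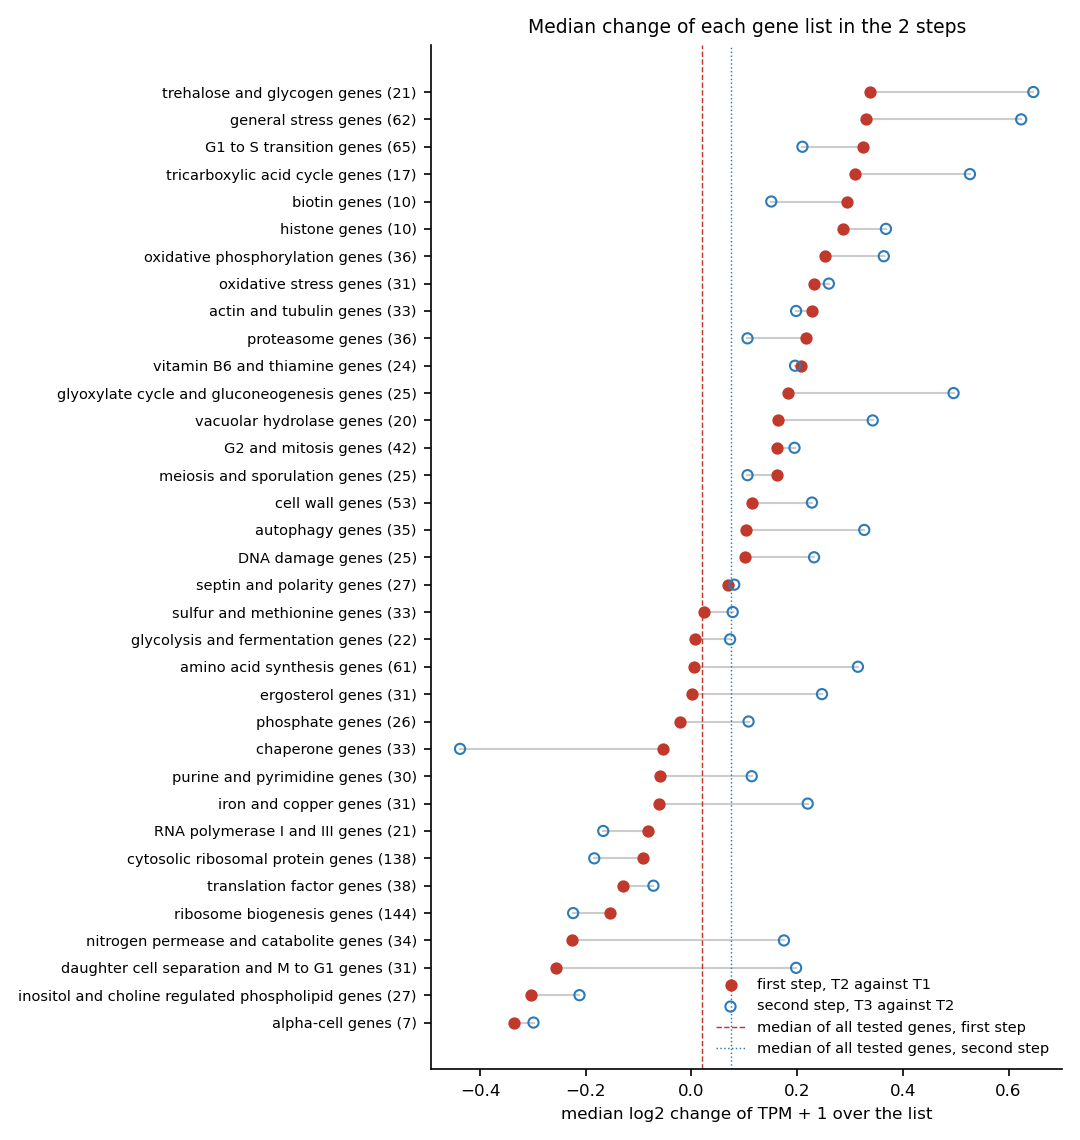
Median log2 change of TPM + 1 over each of the 35 gene lists with at least 4 members past the threshold at T2, with the number of tested members in brackets. Filled points are T2 against T1, open points T3 against T2, and the vertical lines mark the medians of all tested genes (0.02 and 0.07). Separation genes (-0.26, then 0.20) and nitrogen genes (-0.23, then 0.18) lie on opposite sides of 0 in the 2 steps, and chaperone genes move mainly in the second (-0.05, then -0.44).

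Some ribosome genes fell at T2, by small amounts. Over all tested genes 6.10% fell at T2 and 6.09% fell between T2 and T3. Of 144 ribosome biogenesis genes, 25 fell and 1 rose (median log2 change -0.15), and 41 fell between T2 and T3. UTP20 and RRP5, both assembly factors of the small subunit, held 15.7 and 16.8 and 38.8 and 44.4 TPM at T2, against 26.1 and 22.97 and 62.04 and 61.5 TPM at T1. NOP1, the methyltransferase of box C/D particles and the most abundant member, held 629 and 692 TPM at T2, against 835 and 840.5 TPM at T1 (limma adjusted p = 0.0127, and 0.128 without T2 A). Among the 138 tested genes of cytosolic ribosomal proteins, 23 were lower and 2 higher at T2 (median log2 change -0.09), and 60 fell between T2 and T3. RPL9A held 1475 and 1460.3 TPM at T2, against 1996 and 2002 TPM at T1, and RPL1A held 1197 and 1194 TPM at T2, against 1585 and 1547 TPM at T1. In both, each T2 library lay below each T1 library, with log2 changes of -0.45 and -0.39, but paralogues with near-identical sequence make single ribosomal protein genes uncertain. RPL41A, the most abundant, held 42527 and 36102 TPM at T2, against 44416 and 44164 TPM at T1, which did not pass (limma adjusted p = 0.172). Without T2 A 3 and without T1 B 10 biogenesis genes fell, and without T2 A 8 and without T2 B 7 ribosomal protein genes fell. Without T1 A 10 ribosomal protein genes rose. Rescaling by the median of ratios gave 46 biogenesis genes lower and quantile normalization 54. No gene of either list was complete or turned back. The PAC element GCGATGAG occurred in 11.9% of promoter windows of genes that fell, 1.89% of those that rose and 4.98% of all.

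Among other parts of gene expression, 6 of 38 translation factor genes fell and 2 rose at T2, and without T1 B or T2 A 1 fell. With quantile normalization 17 translation factor genes fell, with rescaling by the median of ratios 11, and without a filter on low values or an abundance trend 0 and 1. YEF3, elongation factor 3, held 611 and 685 TPM at T2, against 868 and 993 TPM at T1 (limma adjusted p = 0.00198). RPA190, the largest subunit of RNA polymerase I, held 62.1 and 67.5 TPM at T2, against 88.5 and 92.6 TPM at T1 and was among 4 of 21 RNA polymerase I and III genes that fell, a count of 2 without T1 B, T2 A, T2 B or the abundance trend, and of 8 with quantile normalization. Of 12 RNA polymerase II genes 0 passed limma's threshold at T2 (1 rose and 0 fell at an unadjusted p below 0.05, and 3 fell with quantile normalization). RPO21, its largest subunit, held 49.8 and 56.4 TPM at T2, against 58.8 and 65.4 TPM at T1 (limma adjusted p = 0.19). Of 75 mitochondrial ribosomal protein genes 1 passed, MRP8, which carries the name of the family but is now described as a protein of unknown function. The call was lost without T1 A, T2 A or T2 B (limma adjusted p = 0.139, 0.0912 and 0.0969), and with quantile normalization 5 members of the list fell and 0 rose. ACT1, the actin gene, held 1577 and 1724 TPM at T2, against 1499.6 and 1542 TPM at T1, and TDH3, a glycolytic enzyme gene, held 9251 and 10165 TPM at T2, against 9365 and 9838 TPM at T1, neither past the threshold.

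Chaperones split at T2, when 11.9% of all tested genes rose and 6.10% fell. Of 33 tested genes, 5 rose and 7 fell (median log2 change -0.05), whereas 22 fell and 0 rose between T2 and T3 by limma (0 rose at an unadjusted p below 0.05; median -0.44). The 5 that rose were SSA4, SSA3, HSP26, CPR6 and CDC37, of which HSP26, CPR6 and CDC37 were chosen after their values were seen. SSA4, a stress-induced Hsp70, held 337 and 394 TPM at T2, against 218 and 277 TPM at T1, and 148 and 132 TPM at T3. Its T2 libraries were thus the highest of the series and its T3 libraries the lowest, with log2 changes of 0.57 (limma adjusted p = 0.00518) and -1.38 (limma adjusted p = 1.12e-05). CPR6, a cyclophilin that works with Hsp90, held 1142 and 1241 TPM at T2, against 840.1 and 957 TPM at T1, and 829.9 and 756 TPM at T3. HSP26, a small heat shock protein that binds aggregates, held 68.3 and 65.5 TPM at T2, against 47.97 and 50.1 TPM at T1, and 45.04 and 44.5 TPM at T3. Both peaked at T2, by 0.41 and 0.44 on the log2 scale over T1. The 7 that fell included APJ1 and BTN2, which act on misfolded proteins, with 18.2 and 19.6 and 243 and 268 TPM at T2, against 42.1 and 31.1 and 367 and 314 TPM at T1. The call of BTN2 was lost without T1 A and without T2 A (limma adjusted p = 0.0901 and 0.108). Without T2 B 2 chaperone genes rose, and the first change of SSA4 then had a limma adjusted p of 0.0514. Without T1 B 3 fell, and without T2 A 1 fell.

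**Figure D5:**
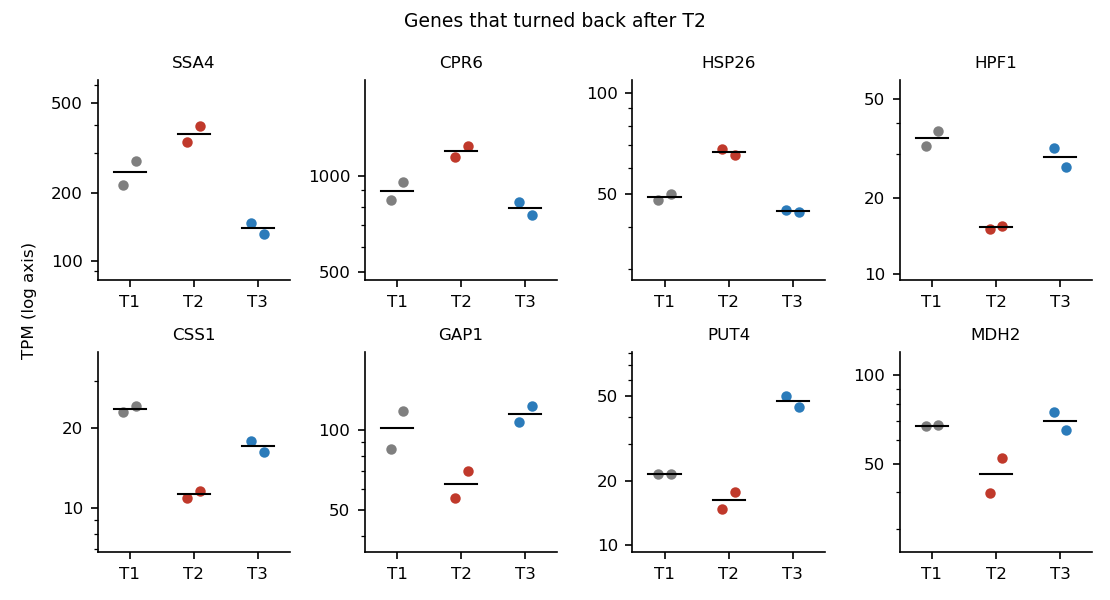
TPM on a log axis in each library at T1, T2 and T3 for 8 genes that turned back. Points are libraries (replicate A left, B right) and lines are group means of 2 libraries. SSA4, CPR6 and HSP26 are highest at T2, and HPF1, CSS1, GAP1, PUT4 and MDH2 are lowest at T2.

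Most genes that turned back had dipped at T2. HPF1, a heavily glycosylated wall mannoprotein, held 15.1 and 15.6 TPM at T2, against 32.4 and 37.2 TPM at T1, and 31.8 and 26.6 TPM at T3. CSS1, whose protein resembles that of HPF1 so that reads may be shared, held 10.9 and 11.6 TPM at T2, against 22.9 and 24.1 TPM at T1, and 17.8 and 16.3 TPM at T3. In both, the T2 libraries were the 2 lowest of the 6, with limma adjusted p = 2.85e-05 for the first step of HPF1 and 4.97e-05 for that of CSS1. The first log2 change of HPF1 was -1.13. ICY1 held 5.18 and 6.72 TPM at T2, against 10.8 and 12.3 TPM at T1, and 11.4 and 10.4 TPM at T3. MMO1 held 8.57 and 9.36 TPM at T2, against 24.5 and 14.9 TPM at T1, and its neighbour PHD1, a regulator of filamentous growth whose reading frame lies 105 bases away on chromosome XI, and which was chosen after its values were seen, held 20.2 and 22.3 TPM at T2, against 51.2 and 26.8 TPM at T1. For MMO1 and PHD1 T1 A lay well above T1 B. MDH2, the cytosolic malate dehydrogenase of gluconeogenesis, held 39.8 and 52.4 TPM at T2, against 66.9 and 67.8 TPM at T1, and 74.95 and 65.2 TPM at T3, with a first step that was lost without T2 A (limma adjusted p = 0.0931). Among the 10 that rose first and then fell, YFR012W-A held 39.5 and 31.4 TPM at T2, against 16.8 and 20.3 TPM at T1, RRN11, a core factor of RNA polymerase I, held 49.6 and 57.7 TPM at T2, against 27.8 and 39.3 TPM at T1, and YOR338W held 33.2 and 35.2 TPM at T2, against 20.7 and 26.2 TPM at T1. HSP26, HPF1, CSS1, ICY1 and YLR152C, the last chosen after its values were seen, were the 5 that turned back in every setting in which they were tested, while YFR012W-A did so in 7, PHD1 in 8 and RRN11 in 9 of 14 other settings.

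Some nitrogen genes fell at T2, and 2 permease genes among them, GAP1 and PUT4, turned back. Over all tested genes 6.10% fell at T2 and 15.8% rose between T2 and T3. Of 34 genes of nitrogen transport and catabolism, 12 fell and 5 rose at T2 (median log2 change -0.23), while 11 rose and 0 fell between T2 and T3 by limma (1 fell at an unadjusted p below 0.05; median 0.18). GAP1, the general amino acid permease, held 55.5 and 70.2 TPM at T2, against 84.8 and 119 TPM at T1, and 108 and 123 TPM at T3. PUT4, the proline permease, held 14.8 and 17.8 TPM at T2, against 21.6 and 21.7 TPM at T1, and 50.4 and 44.6 TPM at T3. GAP1 and PUT4 were chosen after their values were seen, and both were lowest at T2, with first log2 changes of -0.68 and -0.39. AGP1, a broad amino acid permease, held 29.9 and 35.7 TPM at T2, against 57.7 and 68.8 TPM at T1 and was complete at 37.7 and 38.04 TPM at T3, a class kept in 8 of 14 other settings. PTR2, a peptide importer chosen after its values were seen, held 29.995 and 33.3 TPM at T2, against 61.8 and 63.8 TPM at T1 and was complete. It kept the class in all 14 other settings, which left the bound for completeness unchanged. DAL1, the allantoinase, was among the 5 that rose and held 16.9 and 14.7 TPM at T2, against 11.6 and 11.5 TPM at T1, a call lost without T2 A (limma adjusted p = 0.158). Without T2 A 4 nitrogen genes fell, without T2 B 2 rose and without T1 A 3 rose. Outside nitrogen, the glucose transporter genes HXT1 and HXT2 fell to 177 and 201 and 59.1 and 55.5 TPM at T2, against 299 and 315 and 130.0 and 95.3 TPM at T1.

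Some genes of the cytoskeleton and the proteasome rose by small amounts, against 11.9% of all tested genes that rose. Of 33 actin and tubulin genes, 13 rose and 2 fell at T2 (median log2 change 0.23). CAP1, a capping protein of actin filaments, held 158 and 164 TPM at T2, against 112 and 112 TPM at T1, and ARC18, a subunit of the Arp2/3 complex that nucleates branched filaments, held 244 and 239 TPM at T2, against 175 and 178 TPM at T1. LAS17, an activator of that complex, fell to 23.4 and 25.04 TPM at T2, against 33.6 and 34.8 TPM at T1. Without T1 A 8, without T2 A 7 and without T2 B 6 of these genes rose, and 1 fell without T1 B, T2 A or T2 B. Of 36 proteasome genes, 10 rose and 0 fell at T2 by limma (0 fell at an unadjusted p below 0.05; median log2 change 0.22), and 1 rose between T2 and T3. PRE10, a subunit of the catalytic core, held 331 and 345 TPM at T2, against 252 and 247 TPM at T1, and RPN13, a ubiquitin receptor of the regulatory particle, held 460.5 and 457 TPM at T2, against 359 and 321 TPM at T1. In both the T2 libraries lay above the T1 libraries, with log2 changes of 0.44 and 0.43 (limma adjusted p = 0.00286 and 0.00518). PRE1, chosen after its values were seen, was complete, at 439 and 435 TPM at T2, against 319 and 328 TPM at T1. PRE1 kept the class in 6 of 14 other settings. Without T1 A or T2 B 4 proteasome genes rose, when 646 and 408 of all genes did, and without T2 A 5 rose, when 497 did.

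Smaller groups filled in the first step. Of 31 oxidative stress genes, 13 rose and 1 fell at T2 (median log2 change 0.23), and without T2 A 7 and without T2 B 8 rose. GRX1, a glutaredoxin, held 369 and 365 TPM at T2, against 205 and 179 TPM at T1, PRX1, a mitochondrial peroxiredoxin, held 146 and 154 TPM at T2, against 81.3 and 80.3 TPM at T1, and YHB1, the nitric oxide dioxygenase that fell, held 734 and 804 TPM at T2, against 1033 and 1230.3 TPM at T1. Of 24 vitamin B6 and thiamine genes, 8 rose and 0 fell at T2 by limma (0 fell at an unadjusted p below 0.05; median log2 change 0.21). SNZ1, of vitamin B6 synthesis, held 283 and 301 TPM at T2, against 142 and 153 TPM at T1, and THI5, of thiamine precursor synthesis and with near-identical copies, held 19.7 and 22.1 TPM at T2, against 8.23 and 8.76 TPM at T1. Both rose again, to 697 and 558 TPM for SNZ1 and 29.3 and 26.1 TPM for THI5 at T3. Of 7 alpha-cell genes, 4 fell and 1 rose at T2, and without T2 A 2 fell and 0 rose. SAG1, the alpha agglutinin, held 21.1 and 24.996 TPM at T2, against 40.8 and 48.8 TPM at T1 and was complete (in 10 of 14 other settings also), while MF(ALPHA)2, a pheromone gene, held 313 and 309.9 TPM at T2, against 538 and 503 TPM at T1 and went on to 224 and 225 TPM at T3.

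Amino acid synthesis and autophagy changed mostly after T2. Over all tested genes 11.9% rose at T2 and 15.8% rose between T2 and T3. Of 61 amino acid synthesis genes, 5 rose and 2 fell at T2 (median log2 change 0.00), and 29 rose and 3 fell between T2 and T3 (median 0.32). BAT2, the cytosolic branched-chain aminotransferase, held 206 and 221 TPM at T2, against 124 and 132 TPM at T1 and 381 and 355 TPM at T3. ARO9, an aromatic aminotransferase, held 12.8 and 16.02 TPM at T2, against 5.99 and 8.88 TPM at T1 and 34.2 and 30.5 TPM at T3. Both rose in each step, with first log2 changes of 0.73 and 0.88 (limma adjusted p = 0.000121 and 0.00192). Without T2 B 2 amino acid synthesis genes rose, without T1 A 4 fell, and without T1 B or T2 A 1 fell. Of 35 autophagy genes, 4 rose and 0 fell at T2 by limma (0 fell at an unadjusted p below 0.05; median log2 change 0.10), and 16 rose between T2 and T3. ATG8, the ubiquitin-like protein of the autophagosome membrane, held 87.04 and 83.8 TPM at T2, against 49.2 and 48.4 TPM at T1 and 159 and 164 TPM at T3. Without T2 B 2 autophagy genes rose. CHA1, the catabolic serine and threonine deaminase, fell in both steps, with 57.1 and 47.8 TPM at T2, against 98.1 and 102 TPM at T1, and 16.4 and 15.2 TPM at T3.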

How the data were processed

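Poly(A) RNA of 6 W303 libraries was sequenced, 2 in each of T1, T2 and T3, with fragments enriched on oligo(dT) beads per the labels' protocols. The authors deposited TPM values per gene. Per the submitters' processing notes STAR 2.5.2b, featureCounts and Subread 1.5.2 were used with build R64. Strand and multiple-mapping settings are not given in the sources used here, so near-identical, overlapping and antisense genes are uncertain. Not every result of the promoter search is reported here. The unnamed entry (4.74 to 5.83 TPM) was left out, and 6162 of 6400 named entries were matched to R64.

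TPM times gene length gave whole fragments (within 0.1, up to 500 fragments) for 99.84 to 99.93% of genes, from which the depths come. They cover counting error only.

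All 6 libraries entered 1 limma 3.58.1 fit (R 4.3.3) of group means on log2(TPM + 1) for genes averaging at least 1 TPM, moderated by eBayes with a trend on abundance (10.7 prior and 3 residual degrees of freedom). P-values are two-sided, with Benjamini-Hochberg adjustment over the 6046 genes. The test was checked on simulated data. Python 3.11.15, pandas 2.3.3, NumPy 2.4.6 and matplotlib 3.10.9 were used for tables and plots.

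Genes were named by rule, among R64-matched genes past the threshold, with T2 and T1 libraries apart and at least 10 TPM in T2 or T1: the 12 largest rises and falls, the 6 largest of each among complete genes, the 4 largest of each among those that turned back and by the difference of the steps, and per list the most abundant member and the 2 largest rises and falls. ACT1, TDH3, HSP12, RPO21, WHI5, SIC1, SWI4, CLB2, CLN3, CLN2 and CLN1 were named beside them. Genes outside the rule are marked in the text. Members and lists were chosen with earlier results of these data known. Alternatives changed the pseudocount, filter, scaling, trend, libraries and the bound for completeness.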

Additional observations from a re-analysis of the deposited data

How the results depend on the processing

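Of 1091 calls, 722 were higher and 369 lower. Without a filter on low values there were 411 higher, 133 lower, 16 turned back and 1 with a larger first step. Without the abundance trend 222 were lower and 14 had a larger first step. Quantile normalization gave 613 lower and 10 with a larger first step, and rescaling by the median of ratios gave 65 complete and 18 with a larger first step. Bounding the second change at 0.25 times the first left 3 complete genes, and at its whole size 368. Leaving out 1 library at a time gave 408 to 679 genes higher, 153 to 451 lower, 22 to 68 complete, 22 to 60 turned back and 17 to 146 with a larger first step. The cause of these movements was not tested. Deviations of the A libraries from their group means were weakly correlated between groups (0.132, -0.0578 and -0.15). This cannot show whether libraries of the same letter share a culture. With a replicate block there were 647 higher, 324 lower, 37 complete, 28 turned back and 39 with a larger first step. Of the named genes' changes under the alternatives, 2470 kept their direction and side of the threshold, 246 lost the call and 21 gained it. No called change took the other sign, while 30 values of 13 uncalled genes did. Of the counts per list, 1136 stayed within 1.5 times the reported count and 274 did not. With 2 libraries a group and a median standard error of 0.11 on the log2 scale, a small change that missed the threshold is not shown to be absent.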

Other observations

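In glycolysis and fermentation, 4 of 22 tested genes rose and 3 fell at T2, and without T2 B 2 rose. TDH1, a glyceraldehyde-3-phosphate dehydrogenase isoform, held 67.4 and 62.2 TPM at T2, against 36.2 and 32.4 TPM at T1 (limma adjusted p = 5.86e-05), and the main isoform TDH3 did not pass. ENO1, an enolase isoform, held 809 and 948 TPM at T2, against 549 and 636 TPM at T1. ALD6, the cytosolic acetaldehyde dehydrogenase that makes acetate, held 371 and 425 TPM at T2, against 619 and 762 TPM at T1 and was complete (in 11 of 14 other settings also). PDC5, the minor pyruvate decarboxylase, held 9.06 and 8.84 TPM at T2, against 14.8 and 13.03 TPM at T1. For TDH1, ENO1, ALD6 and PDC5 the T2 and T1 libraries did not overlap, and reads of TDH1 and ENO1 may be shared with their close relatives.

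Some zinc, copper and sulfur genes also changed. Of 11 zinc genes 3 fell and 0 rose at T2 by limma (0 rose at an unadjusted p below 0.05). ZRC1, the vacuolar zinc transporter, held 119 and 132 TPM at T2, against 165 and 184 TPM at T1 (limma adjusted p = 0.00458). CTR1, the copper importer, held 32.8 and 32.1 TPM at T2, against 44.5 and 46.2 TPM at T1 (limma adjusted p = 0.00445) and fell again, to 23.6 and 24.2 TPM at T3. MET28, an activator of sulfur genes, rose to 79.4 and 76.3 TPM at T2, against 40.4 and 47.3 TPM at T1. SAM2, an S-adenosylmethionine synthetase with a close copy in SAM1, fell to 466 and 509 TPM at T2, against 636 and 755 TPM at T1.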
